A study of Mus musculus with 3 samples.

Results

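Ser5-phosphorylated Pol_II over genes of cholesterol synthesis, and over Ch25h, which makes an oxysterol from cholesterol, was described in mouse bone marrow-derived macrophages (BMDM) before and after LPS. The genes were 8 chosen by name: Hmgcs1, Idi1, Fdft1, Sqle, Lss and Cyp51, which encode enzymes of the pathway, Insig1, which encodes a regulator of it, and Ch25h. Of these, 7 had a record in the GENCODE M1 annotation and were measured, among 22350 protein-coding genes on chromosomes 1 to 19 and X. Hmgcs1 (the synthase that opens the mevalonate branch) had none. The 300 bases around its RefSeq start site were found in the genome assembly only on 2 unplaced sequences, and Hmgcs1 was not analysed here.

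There were 3 libraries, 1 per condition. In ChIP-Seq, DNA bound by the protein of interest is pulled down with an antibody from cross-linked chromatin and sequenced, here with an antibody to Pol_II phosphorylated at serine 5 of its C-terminal repeat. One Ser5 library came from untreated BMDM and the other from BMDM given 10 ng/ml LPS (lipopolysaccharide of Gram-negative bacteria) for 2 h, and the input library was chromatin DNA of untreated BMDM without immunoprecipitation. All cells were grown from bone marrow of female Fvb mice (Fvb/Hsd in the study's methods) and used on day 7 of differentiation, and no line, transgene or deletion was involved. BMDM are macrophages made in culture, so each library is a population of cultured cells and not a tissue. The labels of the stimulated library name LPS alone, as does the study's text on its Ser5 libraries. The figure that displays the Ser5 data names LPS with γIFN for the total Pol_II shown beside them. Whether interferon was present was not settled here. How many mice or cultures entered a library is not given in the sources used here. The libraries held 7616771 tags for untreated Ser5, 6249819 after LPS and 7533308 for input on the chromosomes used. A tag is an aligned read, counted by its 5′ end.

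Cholesterol is built from acetyl-CoA through mevalonate, isoprenoid units, squalene and lanosterol. The genes of the pathway are switched on together by SREBP2, a membrane-bound transcription factor that travels to the Golgi with its escort Scap and is cut there when sterols are low, whereas Insig proteins hold the escort in the endoplasmic reticulum when sterols are high. Ch25h adds a hydroxyl group to cholesterol, and its product is one of the oxysterols that bind Insig. In macrophages Ch25h is known as a gene induced by Toll-like receptor ligands and interferon. Phosphorylation of Pol_II at serine 5 accompanies initiation, and in ChIP-Seq it is usually highest close to start sites.

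Since each condition is a single library, the spread between replicates is unknown. No test was therefore run, and each interval given below is a 95% interval for counting error alone, exact Poisson for a level and exact conditional on the sum for a ratio. A gene was called higher or lower after LPS when its TPM, the tags of a region with each library scaled to 1000000 tags on these chromosomes, differed by at least 2 times, given at least 10 tags over both Ser5 libraries. Over all coding genes the median ratio of LPS to untreated Ser5 was 0.831 within 1 kb of the start site (a log2 value of -0.27) and 0.874 over the gene body (-0.19). Ratios below are stated against the library totals unless they are said to be relative to these medians. The tags were 45 bases long in the untreated library and 30 in the LPS library, so tag length and treatment cannot be told apart. The study's methods give these trimmed lengths the other way round. Libraries are named by their labels throughout, and the LPS-response genes described at the end were all higher in the library labelled LPS.

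The 200 bases upstream of the annotated start sites of Sqle, Idi1, Lss and Ch25h are printed 5′ to 3′ on the strand of each gene, from the NCBIM37 assembly (mm9). They are shown as examples, since the search below found CCAAT at Sqle, Idi1 and Lss and not at Ch25h. The same 200 bases of Insig1 and Cyp51, not printed, hold no CCAAT either. Capitals mark the CCAAT box, a motif bound by NF-Y, or its complement ATTGG. Sqle lies at chr15:59146432-59146631 (+), Idi1 at chr13:8884652-8884851 (+), Lss at chr10:75994133-75994332 (+) and Ch25h at chr19:34549626-34549825 (-).
Sqle: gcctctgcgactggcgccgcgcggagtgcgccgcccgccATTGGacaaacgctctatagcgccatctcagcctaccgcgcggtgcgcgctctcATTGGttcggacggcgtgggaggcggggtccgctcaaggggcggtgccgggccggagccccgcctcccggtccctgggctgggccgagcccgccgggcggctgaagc
Idi1: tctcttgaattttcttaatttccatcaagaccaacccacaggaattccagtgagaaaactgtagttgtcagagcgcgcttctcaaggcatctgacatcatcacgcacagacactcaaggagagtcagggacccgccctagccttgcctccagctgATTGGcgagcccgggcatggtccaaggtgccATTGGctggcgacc
Lss: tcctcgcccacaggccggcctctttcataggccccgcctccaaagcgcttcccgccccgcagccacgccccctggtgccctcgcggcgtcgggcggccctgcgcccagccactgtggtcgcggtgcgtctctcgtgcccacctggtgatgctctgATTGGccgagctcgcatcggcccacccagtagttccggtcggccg
Ch25h: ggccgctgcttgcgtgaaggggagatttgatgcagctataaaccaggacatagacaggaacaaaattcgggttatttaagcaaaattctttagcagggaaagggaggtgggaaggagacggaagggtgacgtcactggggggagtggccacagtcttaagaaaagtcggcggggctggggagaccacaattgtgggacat

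Between 250 bases before and 50 bases after the start site, on either strand, the letters CCAAT occurred at all 6 of the synthesis genes and Insig1 and not at Ch25h. They occurred in 37.9% of the 22350 windows of this length. Sqle held them at -161 and -107, Idi1 at -45 and -14 and Lss at -45, as printed above, and Fdft1 held them at -219 and -184. At Insig1 they stood at -216, beyond the printed length, and at Cyp51 at 20 bases downstream of the start site. The letters TCACNCCAC, a core of the sterol response element bound by SREBP, were in none of the 7 windows and in 1.22% of all windows. GAAANNGAA, a core of the interferon-stimulated response element, was likewise in none of the 7 and in 8.93% of all. A match is a run of letters and not a bound site, and the absence of one says only that these letters are not in the window.

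At the start site all 7 genes carried Ser5 well above input in untreated BMDM, and a Ser5 peak in both libraries. Of all coding genes, 48% had such a peak in the untreated library and 45.9% after LPS. The Ser5 level is given as TPM per kb over the 2 kb centred on the start site. In untreated cells it was highest at Insig1, at 61.2 (57.4 to 65.3), above every other gene of the set. Sqle followed at 23.2 (20.8 to 25.7), Idi1 at 21.3 (19.01 to 23.7), Fdft1 at 19.7 (17.5 to 22.04), Cyp51 at 17.2 (15.2 to 19.4), Lss at 13.6 (11.8 to 15.6) and Ch25h at 11.9 (10.2 to 13.7). From Sqle down, the interval of each gene overlapped that of the next. Input levels at the same windows lay between 0.531 at Cyp51 and 1.46 at Insig1 and Idi1. Untreated Ser5 was thus between 10.5 times input, at Ch25h, and 41.9 times, at Insig1.

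After LPS the order was different. Insig1, at 41.1 (37.6 to 44.8), and Ch25h, at 38.8 (35.4 to 42.4), stood together at the top, with overlapping intervals. A gap separated them from Idi1 at 12.9 (10.96 to 15.02), Fdft1 at 11.8 (9.93 to 13.8) and Sqle at 11.3 (9.49 to 13.3). Cyp51 at 6.64 (5.29 to 8.23) and Lss at 2.56 (1.75 to 3.61) lay below these and apart from each other. Ch25h had moved from the lowest place of the 7 to the second, while Lss had moved to the lowest.

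**Figure D1:**
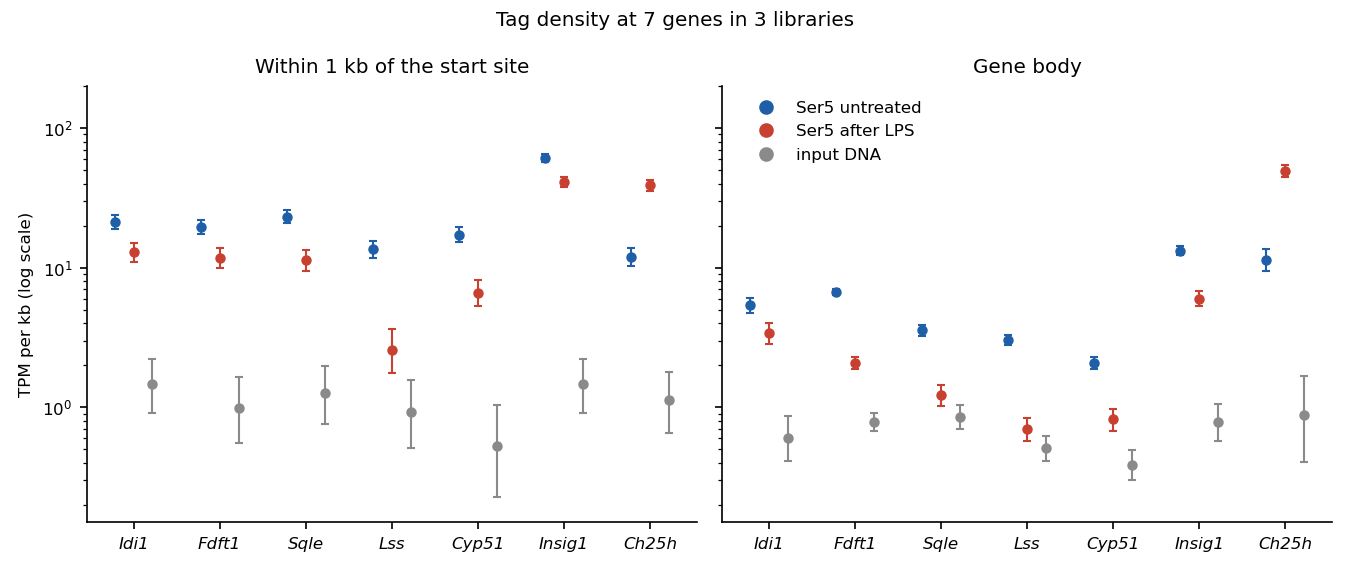
TPM per kb (log scale) at the 7 genes in the untreated Ser5, LPS Ser5 and input libraries, within 1 kb of the start site (left) and over the gene body (right). Points are single libraries and bars are 95% Poisson intervals; at the start site the untreated level runs from 11.9 at Ch25h to 61.2 at Insig1, and Ch25h is the gene whose LPS point lies above its untreated point.

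Ch25h was the gene with more Ser5 after LPS. Its start-site window held 181 tags in the untreated library, 485 after LPS and 17 in input. Both Ser5 values lay above input, and the LPS level was 3.27 times the untreated one (2.75 to 3.90), or 3.93 times relative to the median of all coding genes. By the size rule, 5.58% of 12535 coding genes with enough tags were higher at the start site. Ch25h is a gene of 1350 bases with a single exon (chr19:34548276-34549625, minus strand), so that its body and its start-site window share most of their length. Over the body there were 117 tags untreated, 417 after LPS and 9 in input. The body ratio was 4.34 (3.53 to 5.38), at percentile 98.8 of the coding genes, of which 5.83% were higher over the body.

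The difference at Ch25h was unequal along the locus. In the kb upstream of the start site, 67 tags stood against 92 after LPS, a ratio of 1.67 (1.21 to 2.33), and in the kb downstream 114 against 393, a ratio of 4.20 (3.40 to 5.22). In the 2 kb past the annotated end the counts were 31, 219 and, for input, 14. That flank was 2.19 times input in untreated cells (1.13 to 4.46) and 18.9 times after LPS (11.0 to 35.1), and its ratio of LPS to untreated was 8.61 (5.89 to 13.0). The intervals of the upstream kb, of the downstream kb and of the flank did not overlap. The peak calls moved with the counts: 43.9% of the gene lay under untreated peaks and 94.8% under LPS peaks. The peak at the start site had a score (minus 10*log10 of the MACS p-value) of 898.89 untreated and 3100 after LPS, and it widened from 456 to 2115 bp. A score of 3100 is shared by 737 peaks of the LPS list and 749 of the untreated one, more than any other value, so differences among such peaks cannot be read from it.

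A lincRNA record on the opposite strand, Gm16704, covers the first 328 bases of Ch25h and runs upstream from there. ChIP-Seq carries no strand of transcription, so tags in the shared stretch belong to either. In the 1022 bases of Ch25h outside that record the counts were 29, 188 and, for input, 6, and the ratio was 7.90 (5.32 to 12.1). In the shared stretch the counts were 88, 229 and 3, a ratio of 3.17 (2.47 to 4.10). The 5411 bases of the lincRNA beyond the Ch25h window held 8 tags, 21 tags and 26 in input, a ratio of LPS to untreated of 3.199 (1.36 to 8.35). By total tags Ser5 there was 0.304 times input (0.119 to 0.692) untreated and 0.974 times (0.521 to 1.80) after LPS, and by tags outside the peaks 0.582 times (0.228 to 1.32) and 2.01 times (1.07 to 3.71).

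**Figure D2:**
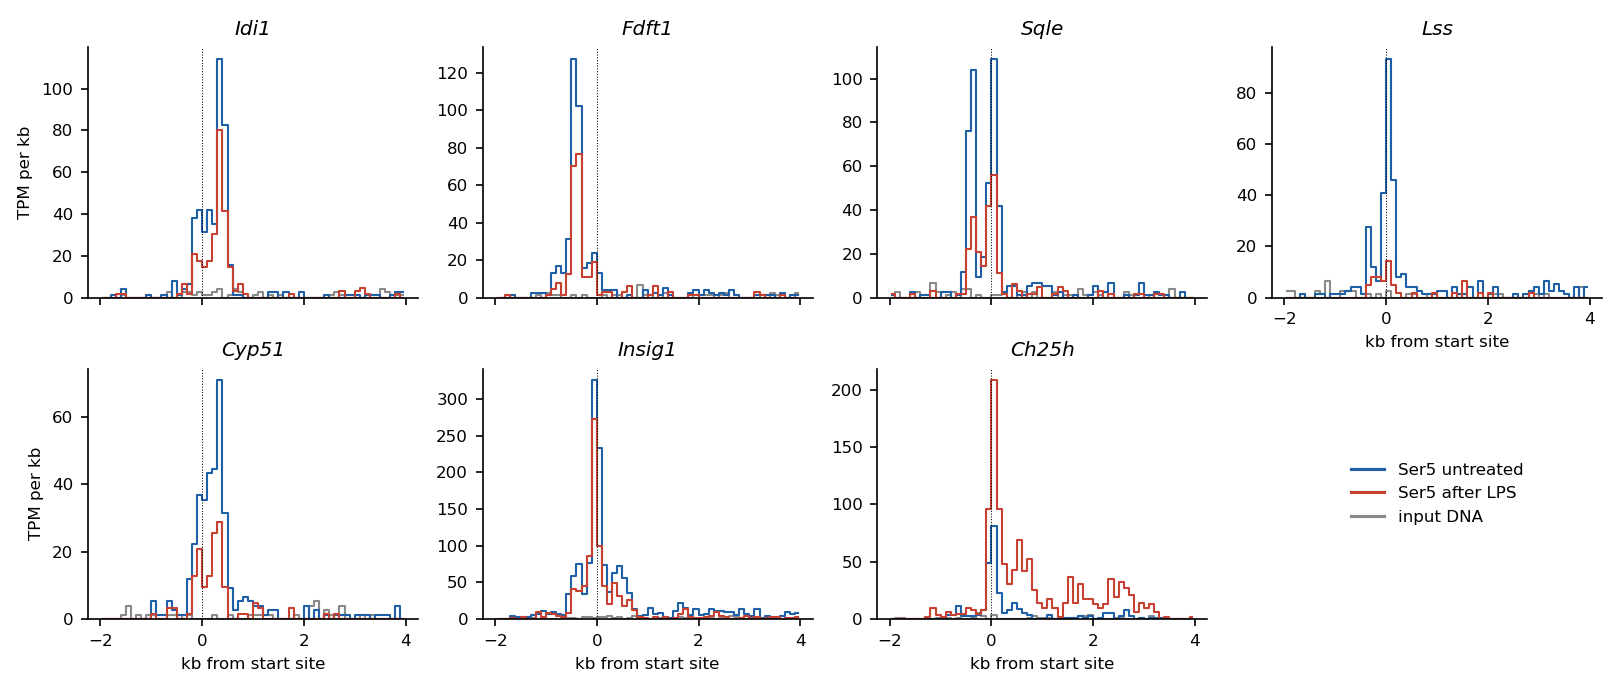
TPM per kb in 100 bp bins (y axis, linear, scaled for each gene) from 2 kb upstream to 4 kb downstream of the annotated start site (x axis, dotted line at 0) for the 7 genes in the 3 libraries. At Ch25h the LPS line runs above the untreated line through the gene and past its end, 1350 bases from the start site; at Lss the LPS line is close to input along most of the window.

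Within 50 kb of either end of the 7 genes, peaks overlapping no annotated gene were listed 11 times over both peak lists. All 11 lay within 4929 bp past the 3′ end of an annotated coding gene, 7 of them past the gene itself. The one with the highest score was 14724 bp upstream of Ch25h at chr19:34563878-34564820, and begins 1988 bp past the end of Lipa, the lysosomal acid lipase gene. It held 117 tags untreated, 72 after LPS and 3 in input, and its score was 1224.01. Its ratio of 0.750 (0.551 to 1.01) was not on the side of that of Ch25h. A small peak 1202 bp past the end of Ch25h (chr19:34546851-34547074) held 9 tags untreated and 40 after LPS, a ratio of 5.42 (2.59 to 12.7). Past Sqle (25 tags untreated and 4 after LPS), Idi1 (19 and 6, 10 and 2) and Cyp51 (10 and 0) the peaks were called in the untreated library alone, so that their counts follow from how they were listed. Past Insig1 the peaks came from the LPS list and overlapped untreated peaks, and held 177 tags untreated against 50 after LPS and 59 against 23. A peak upstream of Fdft1 that lies 4929 bp past the end of Gata4, also from the LPS list, held 38 tags against 11.

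The synthesis genes and Insig1 all had a ratio below 1, both at the start site (0.188 to 0.671, median 0.542) and over the body (0.230 to 0.631, median 0.368). At the start site 3 of these 6 were lower by the size rule, against 14.1% of 12535 coding genes, and over the body 5 of 6 were lower, against 11.3% of 17386 coding genes. With Ch25h included, the counts were 3 lower and 1 higher of 7 at the start site and 5 lower and 1 higher of 7 over the body. Since the median of all coding genes was itself below 1, the ratios relative to it were less low, between 0.227 at Lss and 0.808 at Insig1 at the start site. Divided by that median, 2 of the 6 (Lss and Cyp51) were lower at the start site and 4 (all but Idi1 and Insig1) over the body, against 9.23% and 7.48% of all coding genes. Fdft1 is among these 4 over its whole record only, and not without the stretches near other genes described below. The split of all calls moved with that scaling too, from 28.3% higher to 47.2% at the start site and from 34.1% to 51.7% over the body.

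**Figure D3:**
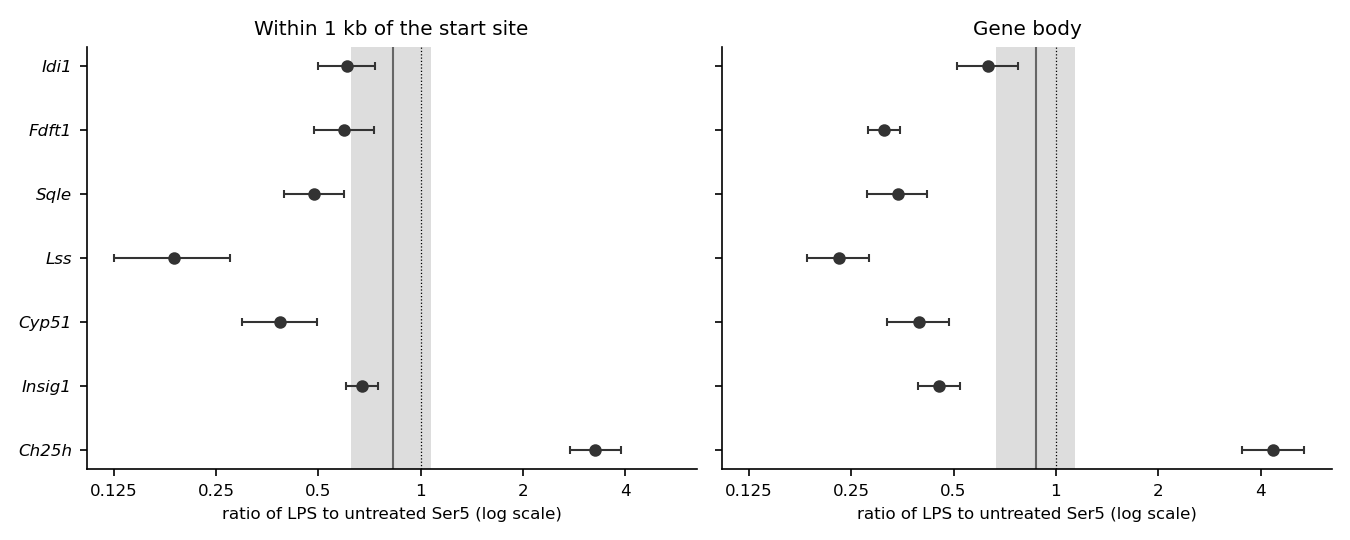
Ratio of LPS to untreated Ser5 (log scale) for the 7 genes within 1 kb of the start site (left) and over the gene body (right), with 95% counting intervals. The grey band spans the quartiles of all coding genes with at least 10 tags, the solid line is their median (0.831 and 0.874) and the dotted line is 1; Lss, Cyp51 and Sqle lie left of the band with their whole intervals in both panels and Ch25h far to its right.

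Idi1 (chr13:8884852-8891641) encodes the isomerase that interconverts the isoprenoid building blocks. It had 324 start-site tags untreated, 161 after LPS and 22 in input. The LPS level was lower by more than counting error, at a ratio of 0.606 (0.498 to 0.734), but not by the size rule. Its body held 278 tags, 144 tags and 31 in input, a ratio of 0.631 (0.513 to 0.775), and of the 7 genes it was the one between the limits in both regions. Relative to the median of all coding genes both ratios were above 0.7 (0.729 and 0.722). From 1 kb downstream of the start site onwards only 31 tags stood against 13, with 18 in input, which by total tags was 1.70 times input (0.924 to 3.23) untreated and 0.871 times (0.392 to 1.88) after LPS.

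Fdft1 (chr14:63763990-63796630, minus strand), squalene synthase, makes the first product committed to sterols. At its start site there were 300 tags untreated, 147 after LPS and 15 in input, a ratio of 0.597 (0.487 to 0.730). Most of them lay upstream of the annotated start, 277 untreated and 136 after LPS in the kb before it against 23 and 11 in the kb after it. The highest 100 bp bin was 400 to 500 bp upstream in the untreated library and 300 to 400 bp upstream after LPS. The start-site window lies within 10 kb past the end of another coding gene, Neil2, and its counts were kept in full. Over the body Fdft1 had 1660 tags untreated, 426 after LPS and 193 in input, and a ratio of 0.313 (0.281 to 0.348).

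Those body tags were concentrated at the far end of Fdft1, where its record overlaps by 769 bp that of Ctsb, the cathepsin B gene, which runs toward it on the other strand. The last 4 kb of Fdft1, 12.3% of its length, held 1317 of the untreated tags (79.3%) and 293 of the LPS tags (68.8%). Ctsb itself held 6781 tags untreated and 2050 after LPS, a ratio of 0.368 (0.351 to 0.387). In an alternative chosen after these tags were seen, stretches in or within 10 kb past the end of another coding gene were left out. These lie near Ctsb and near Neil2, and the first kb of Fdft1 is among them. The 16521 bp of Fdft1 that remained held 159 tags untreated, 59 after LPS and 77 in input. The ratio was then 0.452 (0.330 to 0.613), below the size limit against library totals but not relative to the median of all coding genes. LPS Ser5 in that stretch was 0.924 times input (0.647 to 1.31) by total tags but 1.90 times (1.33 to 2.71) by tags outside the peaks. Where the tags of the shared end, and those near Neil2, belong was not tested.

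**Figure D4:**
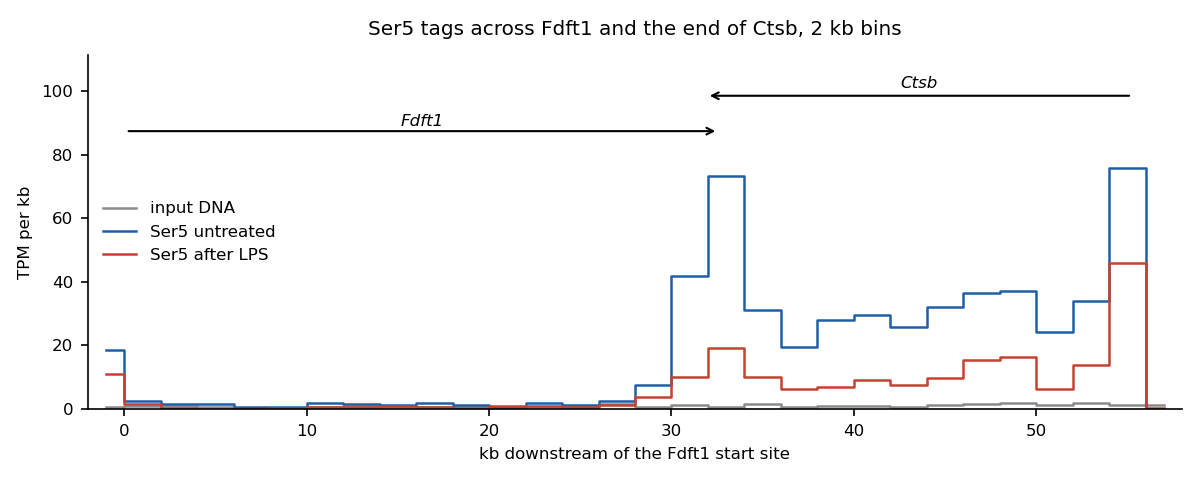
TPM per kb in 2 kb bins (y axis, linear) by distance from the Fdft1 start site (x axis, kb) in the 3 libraries, with arrows for the extent and direction of Fdft1 and Ctsb. Ser5 is low along most of Fdft1 and high from about 30 kb onwards, where Fdft1 ends and Ctsb ends on the other strand.

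Sqle (chr15:59146632-59162747) encodes squalene epoxidase, a rate-limiting enzyme of the sterol branch. It had 353 start-site tags untreated, 141 after LPS and 19 in input, and was lower after LPS with a ratio of 0.487 (0.398 to 0.593), just past the size limit. Its body held 438 tags, 123 tags and 104 in input. The body ratio was 0.342 (0.278 to 0.419), and 8 untreated peaks in the gene were met by 1 after LPS. Part of the body lies in or within 10 kb past the end of another coding gene, E430025E21Rik. Without that part 230 tags stood against 76, and the body ratio was 0.403 (0.307 to 0.524). From 1 kb downstream of the start site, 297 tags stood against 69 after LPS and 95 in input. In that stretch untreated Ser5 was 3.09 times input (2.45 to 3.94) and LPS Ser5 0.875 times input (0.633 to 1.21). In the profile around its start site Sqle had a pair of summits, at the start site and a few bins upstream, and both were lower after LPS.

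Lss (chr10:75994333-76019883), lanosterol synthase, closes squalene epoxide into the first sterol. It showed the lowest ratio of the set in both regions. At the start site 207 tags stood against 32 after LPS and 14 in input, a ratio of 0.188 (0.126 to 0.274) at percentile 1.65 of the coding genes. Over the body 589 tags stood against 111 after LPS and 98 in input, a ratio of 0.230 (0.186 to 0.282) at percentile 1.3. The untreated library had 14 peaks in the gene and the LPS library 1, and the score at the start site was 1533.82 untreated and 173.55 after LPS. Its far end shares its position with the lincRNA record 4930483K19Rik. The ratio was 0.224 (0.170 to 0.291) in the 14283 bases before that record and 0.239 (0.168 to 0.333) in the 11268 shared bases.

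Cyp51 (chr5:4081145-4104746, minus strand) encodes lanosterol demethylase. It held 262 start-site tags untreated, 83 after LPS and 8 in input, a ratio of 0.386 (0.298 to 0.496). Over the body the counts were 374, 121 and 69, a ratio of 0.394 (0.319 to 0.485), so that start site and body were lower to the same degree within counting error. Part of the body lies in or within 10 kb past the end of another coding gene, Akap9. Without that part the body ratio was 0.360 (0.280 to 0.460). The highest bin lay 300 to 400 bp downstream of the annotated start in both Ser5 libraries, as it did at Idi1.

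Insig1 (chr5:28397952-28405201) encodes the sterol-regulated retention protein, and is itself a target of SREBP. Of the 6 it had the most Ser5 and the ratio nearest 1 at the start site. There were 933 start-site tags untreated, 514 after LPS and 22 in input, a ratio of 0.671 (0.602 to 0.749). In the kb upstream, which includes the end of the divergent lincRNA record Gm16719, the ratio was 0.816 (0.706 to 0.941), and in the kb downstream 0.518 (0.435 to 0.614). The body held 730 tags, 272 tags and 43 in input, a ratio of 0.454 (0.394 to 0.523). In the 2 kb past its end 301 tags stood against 83 after LPS and 2 in input, a ratio of 0.336 (0.260 to 0.430). At Insig1 the ratio was thus lower downstream of the start site than upstream of it and lower still past the gene end, and the intervals of these 3 stretches did not overlap. Peaks covered 69.2% of the gene untreated and 23.2% after LPS.

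How Ser5 was shared between the start site and the rest of the gene was compared as the density within 1 kb of the start site over that from 1 kb downstream to the gene end. Over 9941 coding genes with at least 10 tags in each region and Ser5 library, the median change of this ratio from untreated to LPS was 0.950 (quartiles 0.748 and 1.22). At Insig1 it was 10.5 (9.16 to 12.0) untreated and 20.1 (15.8 to 25.7) after LPS, a change of 1.91 at percentile 95.7 of the coding genes. At Sqle it was 8.98 (7.67 to 10.5) and 15.4 (11.5 to 20.9), a change of 1.72 at percentile 93.3. The end of E430025E21Rik, on the other strand, lies within 10 kb of the Sqle end, and without the stretch near it 89 and 22 tags remained. The ratio at Sqle was then 11.7 (9.28 to 14.98) untreated and 18.96 (12.05 to 31.2) after LPS, with overlapping intervals. Its change was 1.62 at percentile 91.6. Insig1 has no such neighbour, and there the body was lower after LPS by more than the start site was. At Lss the ratio was 5.53 (4.67 to 6.53) and 4.09 (2.65 to 6.16), at Cyp51 16.4 (13.5 to 20.0) and 14.4 (10.3 to 20.3) and at Idi1 30.2 (20.9 to 45.2) and 35.8 (20.4 to 68.8), with overlapping intervals in each case. Without the stretch near Akap9, Cyp51 stood at 18.3 (14.4 to 23.3) untreated and 18.7 (12.2 to 29.4) after LPS, again with overlapping intervals. Fdft1 went from 2.90 (2.55 to 3.28) to 5.60 (4.61 to 6.78) over its whole record. With the stretches near other genes left out of its body, it went from 15.6 to 20.6 (15.1 to 28.3), an interval that holds the untreated value. That was a change of 1.32 at percentile 80.9. The start-site window of Fdft1, which lies near Neil2, was kept in full for this. Ch25h is too short for this measure.

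Beyond 1 kb of the start site, LPS Ser5 was not above input by total tags at Sqle, Idi1, Lss (1.26, 0.935 to 1.69) and Cyp51 (1.19, 0.830 to 1.70), where untreated Ser5 was 3.09, 1.70, 4.93 and 2.70 times input. This reading depends on the scaling, because far more of the Ser5 tags than of the input tags lie in peaks. With library totals taken from the tags that lie in no peak (49.9% of the untreated tags, 46.3% of the LPS tags and 95.5% of the input tags), the LPS values were 1.80 (1.30 to 2.48) at Sqle, 2.59 (1.93 to 3.49) at Lss and 2.44 (1.71 to 3.50) at Cyp51, all above input. Without the stretches near other genes, the LPS value was 1.33 (0.756 to 2.29) at Sqle, no longer above input, and 2.07 (1.23 to 3.45) at Cyp51. At Idi1 the LPS value was 1.79 (0.808 to 3.87), and the untreated value was then 3.26 (1.77 to 6.19), above input. At Insig1 the LPS value was above input under both, at 3.33 (2.15 to 5.28) and 6.85 (4.43 to 10.9).

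A further 30 genes of the pathway were taken as 4 lists, chosen with earlier results of these data known. Their counts are descriptive. None was higher after LPS by the size rule in either region. At the start site 8 of the 27 with at least 10 tags were lower, with a median ratio of 0.632, and over the body 11 of 29 were lower, with a median of 0.606. Of all coding genes 14.1% and 11.3% were lower and 5.58% and 5.83% higher in these regions, with medians of 0.831 and 0.874. The start-site count of 8 was 5 when scaled to tags outside the peaks and 3 with 1 tag per position and strand. The body count of 11 was 8 and 10 under these settings. Scaled to tags outside the peaks, 11.8% of all coding genes were lower at the start site and 8.97% over the body. The counts by list below use library totals.

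Of the genes for mevalonate and isoprenoid steps 3 of 7 with enough tags were lower over the body. Acat2, the thiolase at the head of the pathway, had 323 body tags untreated and 69 after LPS, a ratio of 0.260 (0.198 to 0.339). Fdps, which makes farnesyl diphosphate, had 431 and 160, a ratio of 0.452 (0.375 to 0.544), and Mvk, mevalonate kinase, 540 and 220, a ratio of 0.497 (0.423 to 0.582). Pmvk, phosphomevalonate kinase, was apart from these, with 176 body tags untreated and 142 after LPS, a ratio of 0.983 (0.783 to 1.23).

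Of the genes for the later sterol steps 4 of 8 were lower over the body, with a median ratio of 0.531. Dhcr7, the last reductase of one branch, had 470 body tags untreated and 96 after LPS, a ratio of 0.249 (0.198 to 0.311), though at its start site the ratio was 0.661 (0.534 to 0.816). Sc4mol, the methyl sterol oxidase, had 513 and 171 (0.406, 0.340 to 0.484) and Nsdhl, which acts after it, 229 and 89 (0.474, 0.367 to 0.608). By total tags the LPS body level at Dhcr7 was 0.608 TPM per kb, below input at 0.678. At Sc4mol (1.75 against 0.840) and Nsdhl (0.356 against 0.286) it was above input. The 4 that were not lower lay between 0.589 and 0.738.

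Among the 9 genes of control and uptake 1 was lower over the body and the median ratio was 0.906, near that of all coding genes. Stard4, a sterol carrier, was the lower one, with 215 body tags untreated and 64 after LPS (0.363, 0.270 to 0.482). Srebf2, the gene of SREBP2, had 1110 and 825 (0.906, 0.827 to 0.992), Srebf1 1217 and 1055 (1.06, 0.972 to 1.15) and Scap 327 and 325 (1.21, 1.04 to 1.42). Insig2, the relative of Insig1, had 9 start-site tags untreated, 2 after LPS and 15 in input, and no peak there, while its body ratio was 0.661 (0.548 to 0.795). By the size rule Insig2 was counted as lower at the start site, on fewer tags than input. Its ratio there was 0.271, with a wide interval (0.0285 to 1.31).

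In the list of oxysterol handling 3 of 5 genes were lower over the body. Gpr183, the receptor for an oxysterol made from the product of Ch25h, had 265 body tags untreated and 69 after LPS, a ratio of 0.317 (0.240 to 0.415), and a start-site peak in the untreated library alone. Soat1, which esterifies cholesterol for storage, had 901 and 229 (0.310, 0.267 to 0.358), and Cyp27a1, another sterol hydroxylase, 135 and 54 (0.487, 0.349 to 0.673). Hsd3b7, an enzyme that acts on oxysterols, had 476 and 348 (0.891, 0.774 to 1.03). By total tags the LPS body level was below input at Gpr183 (0.858 against 1.18 TPM per kb), Soat1 (0.793 against 0.885) and Cyp27a1 (0.355 against 0.595). It was above input at Hsd3b7 (3.06 against 0.700). Untreated Cyp27a1, at 0.729, was itself near input. As for the genes above, the reading against input depends on the scaling. Cyp7b1 had 88 and 50 body tags against 382 in input, below input in both conditions.

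**Figure D5:**
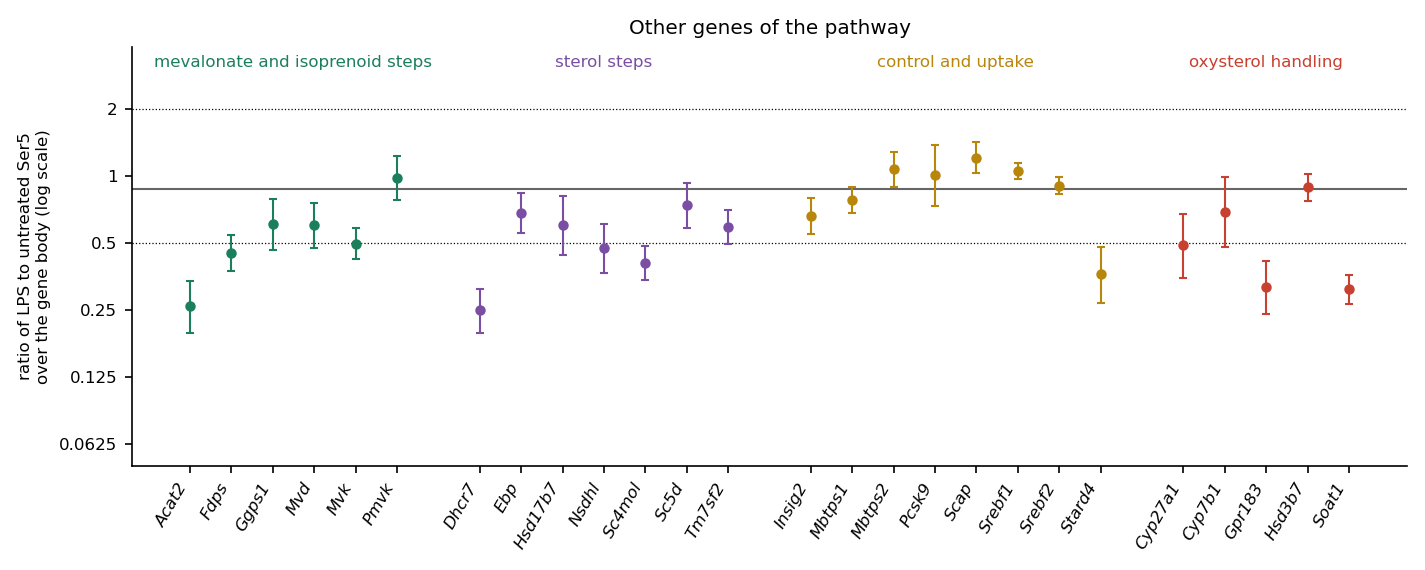
Ratio of LPS to untreated Ser5 over the gene body (y axis, log scale) with 95% counting intervals for 26 of the other pathway genes with at least 10 tags, in 4 lists. The solid line is the median of all coding genes (0.874) and the dotted lines are the size limits of 0.5 and 2; 10 of 26 points lie below the lower limit and none above the upper one.

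Of 14336 genes with at least 50 body tags over both Ser5 libraries, those nearest to Ch25h in the pair of body densities, by distance on the log2 scale with 0.1 added, were Socs1 (distance 0.063), Prdx1 (0.192) and Ccl9 (0.260). Socs1, a suppressor of cytokine signalling, went from 11.8 to 48.6 TPM per kb, as against 11.4 and 49.4 at Ch25h. Nearest to the median of the other 6 genes were Tmem158, Ccdc78 and Wdr91, and Wdr91 went from 4.64 to 1.59. This likeness rests on 2 libraries.

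The macrophage label was compared with marker genes. All 6 macrophage markers with a record had a start-site peak in both libraries, and 0 of the 12 markers of T cells, B cells, neutrophils and fibroblasts had one in untreated cells, with 1 neutrophil gene after LPS. All 7 genes of a list of known LPS responses were higher over the body, by 6.17 to 396 times. The macrophage markers also differed between the libraries, with 4 of 6 lower over the body (Csf1r, Cd68, Itgam and Lyz2, median of the 6 ratios 0.427) and 2 higher (Emr1, 3.01, and Cd14, 3.18). Lower Ser5 after LPS was thus also measured at macrophage genes outside the pathway, and its part in the values of the synthesis genes was not tested. Within a population, fewer cells carrying Pol_II at a gene and less Pol_II per cell cannot be told apart.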

How the data were processed

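Ser5-phosphorylated Pol_II ChIP-Seq and input libraries of BMDM were analysed from deposited tags and peaks. The authors trimmed the reads, kept unique Bowtie alignments to mm9 with at most 2 mismatches, and called peaks per library against input with MACS at a p-value of 1e-05; versions are not given in the sources used here. The deposited peak score is minus 10*log10 of that p-value. Tag 5′ ends on chromosomes 1 to 19 and X were counted per gene body and within 1 kb of the GENCODE M1 start site, in TPM (each library scaled to 1000000 tags), per kb; 0 tags were set to 0.5 in the size rule. The text names the 7 measured genes, the pathway and marker lists, and for likeness the 3 nearest genes; 3 pathway genes are counted in their lists but not reported here. The genes and lists were chosen with earlier results of these data known. Counting, intervals and the size rule were tested on simulated data (Python 3.11.15, numpy 2.4.6, scipy 1.17.1, numba 0.67.0, matplotlib 3.10.9). Alternatives covered scaling, repeated tags, tag shift, windows, start sites, unique sequence and size limits.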

Additional observations from a re-analysis of the deposited data

How the results depend on the processing

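No ratio of LPS to untreated Ser5 of the 7 genes crossed 1 under any alternative. At the start site 3 genes were lower, 5 with a limit of 1.5 times, and 2 when scaled to tags outside the peaks, when divided by the median of all coding genes, or with 1 tag per position and strand, since Sqle then lay above 0.5. Over the body 5 were lower, and 4 when divided by that median or with tags moved 75 bp downstream, since Insig1 then stood at 0.520 and 0.537. Counted from 1 kb downstream, 0 genes were higher over the body, because Ch25h is too short to have such a stretch. Of the other pathway genes 8 were lower at the start site, 5 when scaled to tags outside the peaks and 3 with 1 tag per position. Over the body 11 of them were lower, and 8 and 10 under these settings. Scaling to those tags raised the ratios of untreated Ser5 to input, to 80.2 at Insig1 and 20.1 at Ch25h. With 1 tag per position the untreated density ratio of Insig1 was 7.53 in place of 10.5. No paired analysis was possible because each condition had 1 library, and for the same reason no library could be left out. Depth limits Idi1 beyond 1 kb, and the small peaks past gene ends.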
